A study of Sus scrofa with 19 samples.

Results

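The proteasome genes were followed in the adrenal glands of 19 male piglets. They were taken as the probe sets that carry a single gene symbol beginning with PSMA, PSMB, PSMC, PSMD, PSME, PSMF or PSMG in the array annotation. One probe set stood for each symbol, the one with the highest mean, which gave 35 genes out of 12218 genes with a symbol and 27558 probe sets on the array. Only PSMD14 had more than 1 probe set to choose from. Signals are log2 values, so a difference of 1 is a doubling, and a difference between groups is given on that scale throughout.

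Each piglet came from a different sow, so the piglets are independent of one another. The sows ate a fish oil, a microalgae or a control diet from gestation day 75, and on gestation day 112 they received LPS or saline. LPS, lipopolysaccharide, is a bacterial cell wall component that provokes inflammation. The groups were fish oil with maternal LPS (4 piglets, numbers 10, 19, 20 and 24 in the labels), fish oil with saline (4, numbers 9, 11, 13 and 18), microalgae with LPS (2, numbers 7 and 23), microalgae with saline (3, numbers 12, 15 and 22), control diet with LPS (3, numbers 6, 16 and 17) and control diet with saline (3, numbers 8, 14 and 21). All 19 piglets, weaned at 21 days, were given LPS themselves 1 week later, at 28 days of age, and were killed 2 hours after it, so no gland of an unchallenged piglet was measured. Whole glands were used, and in such samples fewer cells of a type and less RNA per cell cannot be told apart.

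The proteasome is the barrel-shaped protease that breaks down proteins tagged with ubiquitin. Its 20S core is a stack of rings of alpha subunits, which gate the entrance, and beta subunits, some of which cut. The 19S cap binds ubiquitin chains, unfolds the substrate with a ring of ATPases and removes the chains, while the 11S and PA200 caps open the core without ubiquitin. Interferon induces replacement cutting subunits and the 11S pair PSME1 and PSME2, and this immunoproteasome shapes the peptides that MHC class I molecules display. In the adrenal gland, as in other tissues, the constitutive form is the housekeeping one.

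The 35 genes held 6 alpha-ring genes, 5 beta-ring genes, 5 ATPases of the 19S cap, 8 other 19S subunits, 5 assembly chaperones, 4 activators, the inhibitor PSMF1 and PSMC3IP. PSMC3IP shares only the prefix: it is a meiotic recombination cofactor named for its binding to PSMC3. On the interferon-inducible side, PSME1 and PSME2 are the genes reported. PSMB8 shared its probe set with TAP2 in the annotation, and the inducible cutting subunits were not analysed here. In the RefSeq annotation of the Sscrofa11.1 assembly, PSME2 and PSME1 lie with 1 gene between them, and PSMB11 and PSMB5 are direct neighbours.

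The means of the 35 genes ran between 1.51 for PSMA8 and 8.53 for PSMA6. These levels mix the amount of RNA with how each probe set responds and were not compared between genes. PSMA8, the alpha subunit of the testis proteasome in mouse and human, fell under the mean of 3.225 that the lowest 25% of probe sets did not exceed, and was not tested. It read between 1.30 and 1.96 in the 19 piglets. The other 34 genes were tested. PSMB11, the beta subunit of the thymus proteasome, had a mean of 3.76, close to that limit, and PSMC3IP had a mean of 4.08. PSMA6 and PSMA3, both constitutive alpha subunits, had means of 8.528 and 8.504, and PSMA4, another one, had a mean of 8.06.

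The genes also differed in how much they varied between piglets of the same group. The within-group SD was 0.44 for PSMD5, a chaperone of the 19S base, 0.41 for PSMA4 and 0.34 for PSMG4, a chaperone of the alpha ring. It was 0.11 for PSMA3, 0.13 for PSMD6, a lid subunit of the 19S cap, and 0.13 for PSMA1. The map of relative signals shows these as strongly and weakly coloured rows.

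**Figure D1:**
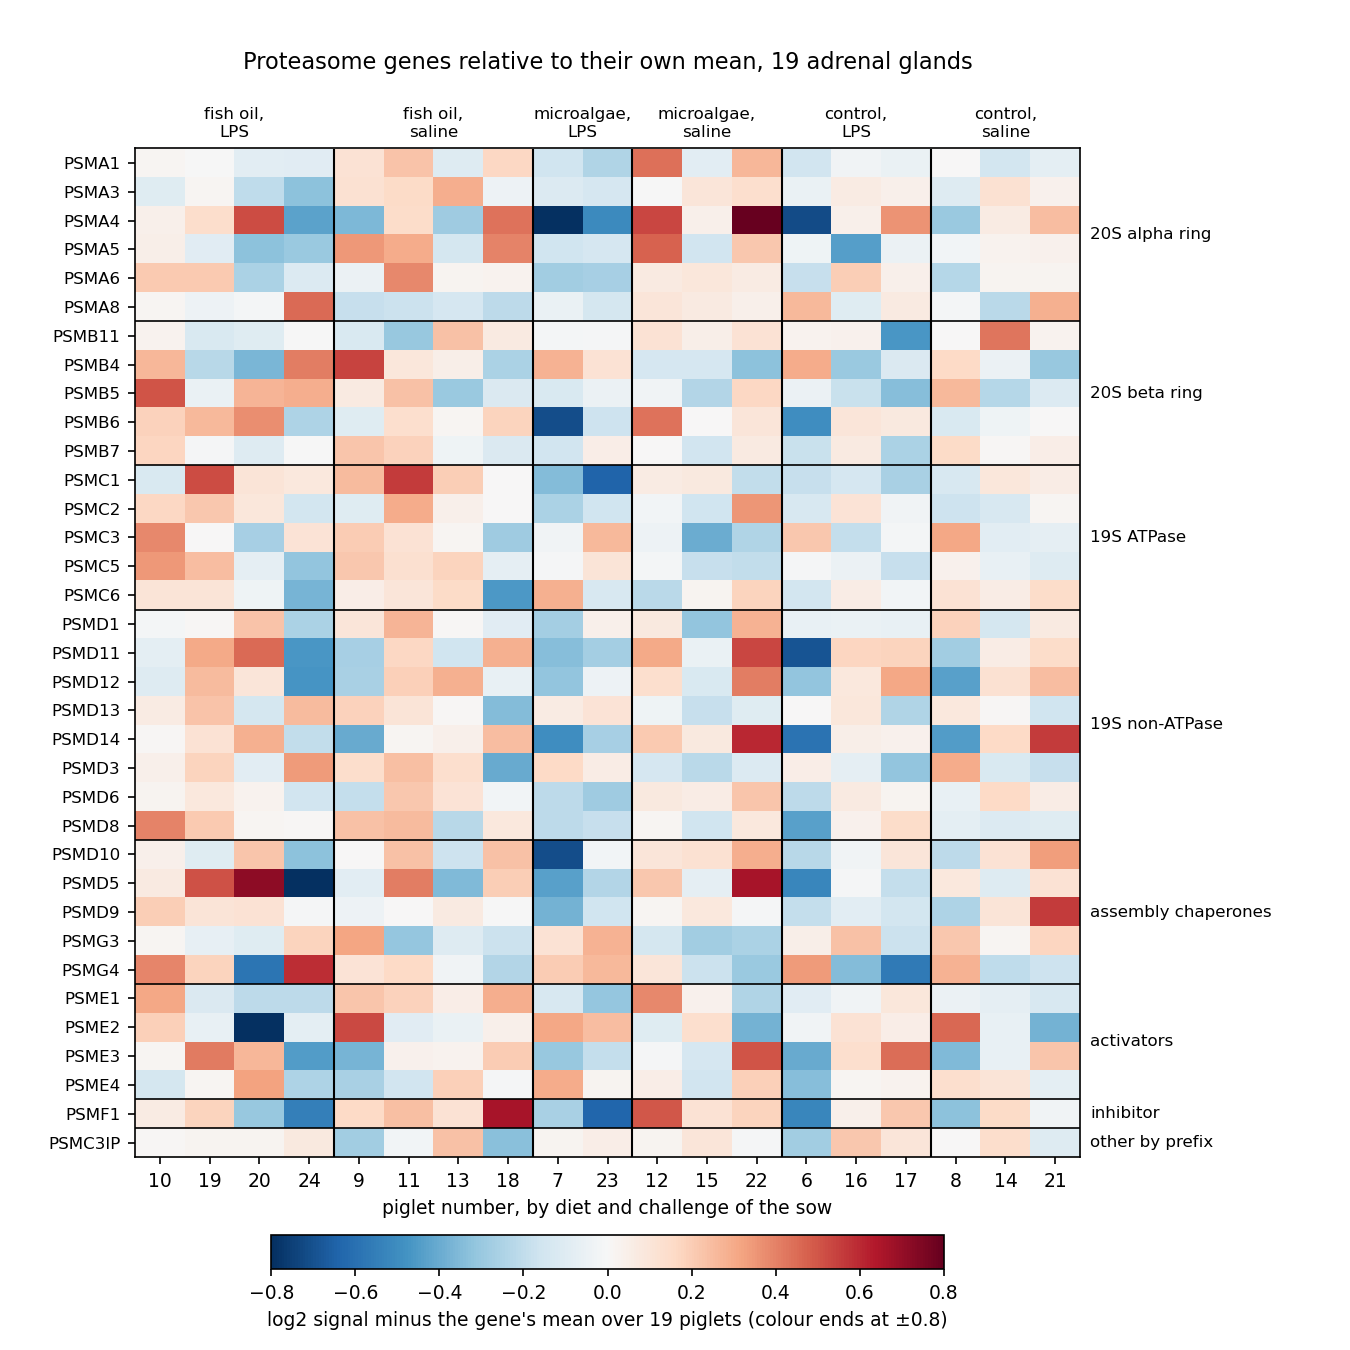
Log2 signal of each of the 35 proteasome genes (rows, grouped by role) minus that gene's mean over the 19 piglets, for each piglet (columns, grouped by the sow's diet and challenge). Red is above and blue below the gene's mean. PSMA4 and PSMD5 vary most, piglets 6, 7 and 24 hold many blue cells, and PSME2 is lowest in piglet 20.

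Maternal LPS was followed by slightly lower signals for most of the proteasome genes, but no single gene passed the test. The genes share the same arrays, so counts of genes, here and below, are not counts of independent observations. The mean of the proteasome genes in each piglet, relative to their own means, ran between -0.18 and 0.11 in LPS piglets. It ran between -0.07 and 0.14 in saline piglets, so these ranges overlapped, and its within-group SD was 0.085. Averaged over the diets, 23 of the 34 genes were lower and 11 higher after maternal LPS than after saline, with a median difference of -0.11, against 0.01 over all probe sets tested. At an adjusted p under 0.05 in limma, 0 of the 34 genes were called, and 0.00968% of all probe sets were, which is 2 of 20668. The lowest adjusted p among the 34 was 0.599. At an unadjusted p under 0.05, 6 proteasome genes were lower and 0 higher, where 3.59% of all probe sets were lower and 3.37% higher. That count was 3 when piglet 6, 7, 21 or 22 was left out. The median was -0.04 after quantile normalization, -0.07 with array weights and -0.06 without piglets 6 and 24.

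Among the roles with more than 1 tested gene, the alpha ring was the one in which all members lay on the same side. All 5 tested alpha-ring genes were lower after maternal LPS, with a median of -0.19 and differences between -0.42 and -0.12. PSMA5 and PSMA4 met the unadjusted threshold, as did PSMA1, an alpha subunit with a difference of -0.19 ± 0.08 (SE; limma, unadjusted p = 0.0383, adjusted p = 0.697). The beta ring had 3 of 5 genes lower (median -0.09), the 19S ATPases 3 of 5 (median -0.02), the other 19S subunits 6 of 8 (median -0.11), the assembly chaperones 3 of 5 (median -0.16) and the activators 2 of 4 (median -0.02). PSMC3IP differed by 0.04.

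**Figure D2:**
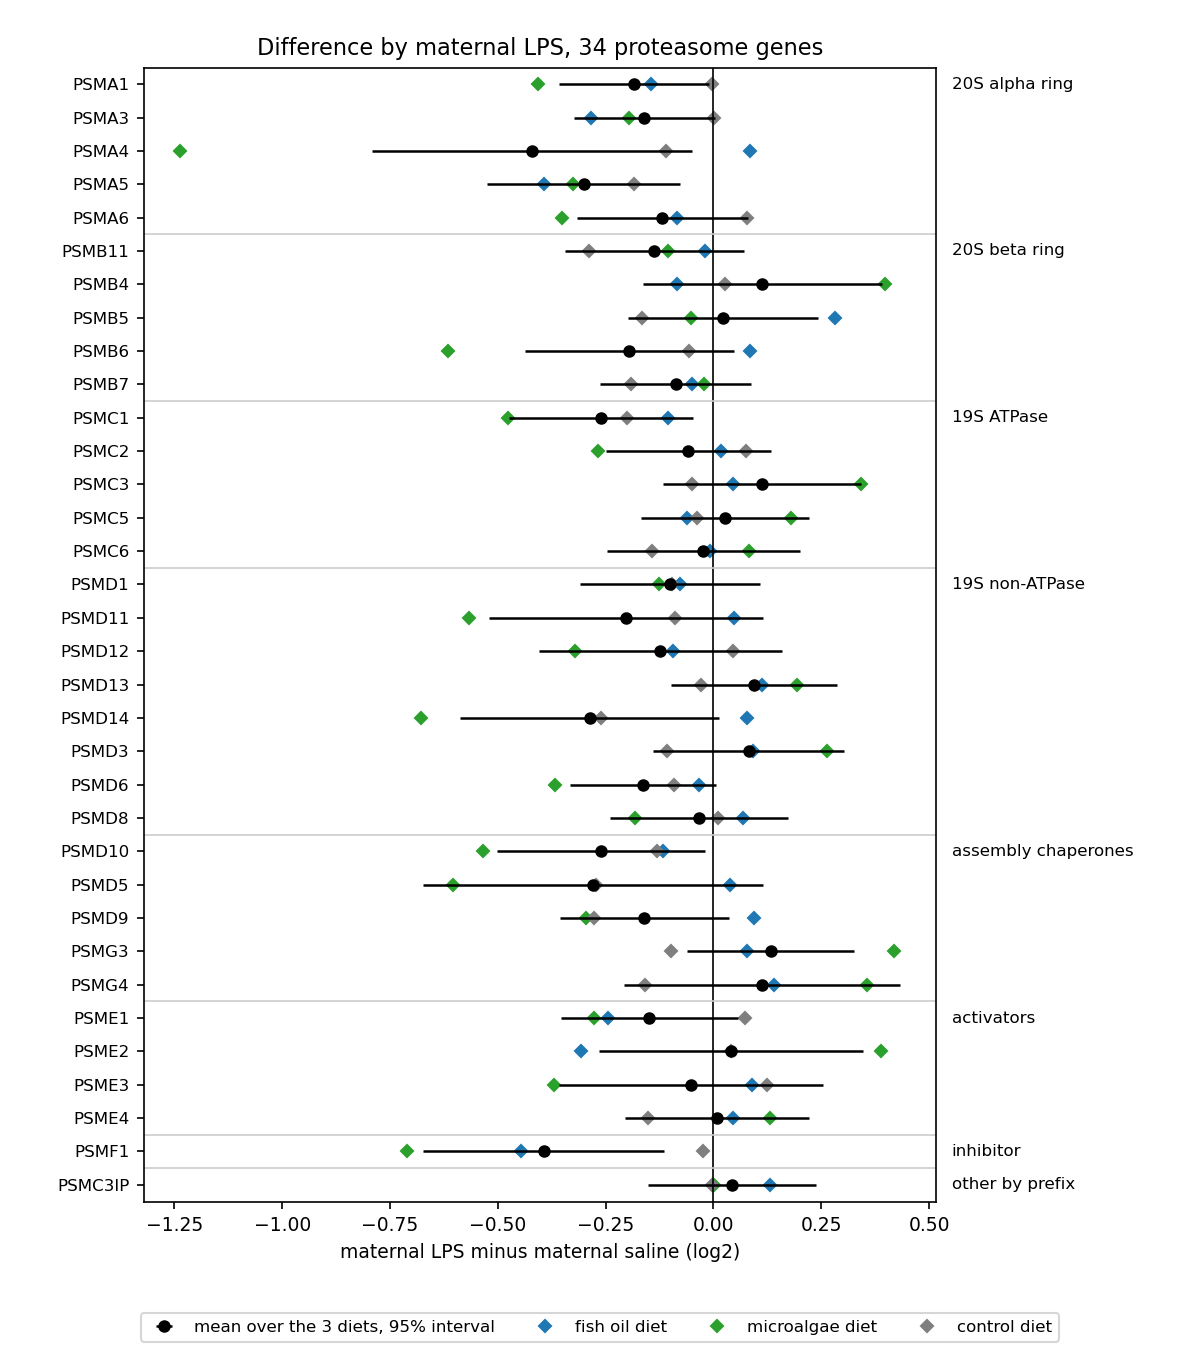
Difference between maternal LPS and maternal saline (log2, horizontal axis) for the 34 tested proteasome genes, grouped by role. Black circles and bars are the mean over the 3 diets with its 95% interval from limma, and coloured diamonds are the differences within each diet. All 5 alpha-ring circles lie left of 0, and the microalgae diamond of PSMA4 lies at -1.24.

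PSMF1, an inhibitor of the 20S core also known as PI31, had the smallest p. After maternal LPS it read 7.46, 7.58, 7.10 and 6.85 in fish oil piglets 10, 19, 20 and 24, against 7.56, 7.64, 7.52 and 8.06 in fish oil saline piglets 9, 11, 13 and 18. It read 7.14 and 6.76 in the microalgae LPS piglets, against 7.90, 7.52 and 7.58 in the microalgae saline piglets. It read 6.88, 7.44 and 7.61 in the control LPS piglets, against 7.07, 7.55 and 7.37 in the control saline piglets. The LPS and saline piglets overlapped in the fish oil and control diets and did not overlap in the microalgae diet. Here and below, a lack of overlap between groups of 2 or 3 piglets arises easily by chance. The share of all probe sets without overlap was not counted. The mean difference was -0.39 ± 0.13 (SE; limma, unadjusted p = 0.00839, adjusted p = 0.599). Within diets it was -0.45 for fish oil, -0.71 for microalgae and -0.02 for control.

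PSMA5, an alpha-ring subunit of the core, had 6.87, 6.74, 6.50 and 6.53 in fish oil LPS piglets, against 7.18, 7.13, 6.69 and 7.23 in fish oil saline piglets. In microalgae piglets it had 6.67 and 6.69 after LPS, against 7.30, 6.67 and 7.05 after saline. In control piglets it had 6.80, 6.39 and 6.78 after LPS, against 6.81, 6.85 and 6.86 after saline. The control groups did not overlap, by a narrow margin, while a saline piglet, 13 in fish oil and 15 in microalgae, sat among the LPS piglets of the other diets. The mean difference was -0.30 ± 0.11 (SE; limma, unadjusted p = 0.0109, adjusted p = 0.605).

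PSMC1, an ATPase of the 19S ring that helps to open the core, had 6.84, 7.48, 7.06 and 7.05 in fish oil LPS piglets, against 7.21, 7.52, 7.15 and 6.97 in fish oil saline piglets. It had 6.61 and 6.32 in microalgae LPS piglets, against 7.03, 7.04 and 6.76 in microalgae saline piglets. It had 6.77, 6.82 and 6.70 in control LPS piglets, against 6.83, 7.05 and 7.02 in control saline piglets. LPS piglets were below all saline piglets in the microalgae and control diets and overlapped with them in the fish oil diet. The mean difference was -0.26 ± 0.10 (SE; limma, unadjusted p = 0.0190, adjusted p = 0.666).

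PSMA4, an alpha-ring subunit, varied over a wide range. It had 8.10, 8.20, 8.58 and 7.63 in fish oil LPS piglets, against 7.70, 8.20, 7.77 and 8.49 in fish oil saline piglets. It had 7.12 and 7.55 in microalgae LPS piglets, against 8.59, 8.10 and 9.02 in microalgae saline piglets. It had 7.34, 8.10 and 8.42 in control LPS piglets, against 7.76, 8.12 and 8.31 in control saline piglets. Only the microalgae groups did not overlap. The mean difference was -0.42 ± 0.18 (SE; limma, unadjusted p = 0.0287, adjusted p = 0.687), and with the spread of each array as a covariate it was -0.23.

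PSMD10, another chaperone of the 19S base that is known as gankyrin, was the remaining gene at an unadjusted p under 0.05. It had 6.65, 7.33 and 7.58 as lowest, median and highest value in the 9 LPS piglets, against 7.15, 7.48 and 7.69 in the 10 saline piglets, and these ranges overlapped. Its difference was -0.26 ± 0.11 (SE; limma, unadjusted p = 0.0353, adjusted p = 0.695).

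The remaining members did not meet the unadjusted threshold for maternal LPS averaged over the diets, and their LPS and saline ranges overlapped. In the core, PSMA3 had 8.18, 8.40 and 8.57 as lowest, median and highest value in LPS piglets, against 8.40, 8.61 and 8.79 in saline piglets, a difference of -0.16. PSMA6 had 8.25, 8.42 and 8.74, against 8.30, 8.55 and 8.91, a difference of -0.12. PSMB4, a beta-ring subunit with no cutting site, had 7.62, 8.10 and 8.39, against 7.65, 7.89 and 8.52, a difference of 0.11. It was among the beta-ring genes on the higher side, and PSMB11, at a low signal, differed by -0.14.

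Among the ATPases, which unfold the substrate, PSMC2, PSMC3, PSMC5 and PSMC6 differed by -0.06, 0.11, 0.03 and -0.02. PSMC3 had 6.28, 6.55 and 6.93 in LPS piglets, against 6.15, 6.49 and 6.86 in saline piglets, so its ranges nearly coincided. Within diets its difference was 0.04 in fish oil, 0.34 in microalgae and -0.05 in control. PSMC1 was thus the only ATPase at an unadjusted p under 0.05.

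Among the other 19S subunits, the lid members PSMD11, PSMD12 and PSMD6 differed by -0.20, -0.12 and -0.16, and PSMD13 and PSMD3 by 0.09 and 0.08. PSMD1, the scaffold of the base, differed by -0.10 and PSMD14 by -0.29. PSMD11 had 6.73, 7.34 and 7.88 in LPS piglets, against 7.15, 7.52 and 7.96 in saline piglets, and piglet 6 held its lowest value. The chaperones PSMD5 and PSMD9 differed by -0.28 and -0.16, while PSMG3 and PSMG4, which build the alpha ring, differed by 0.13 and 0.11. PSME4, the PA200 activator, had 7.03, 7.39 and 7.69 in LPS piglets, against 7.11, 7.39 and 7.56 in saline piglets, a difference of 0.01.

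**Figure D3:**
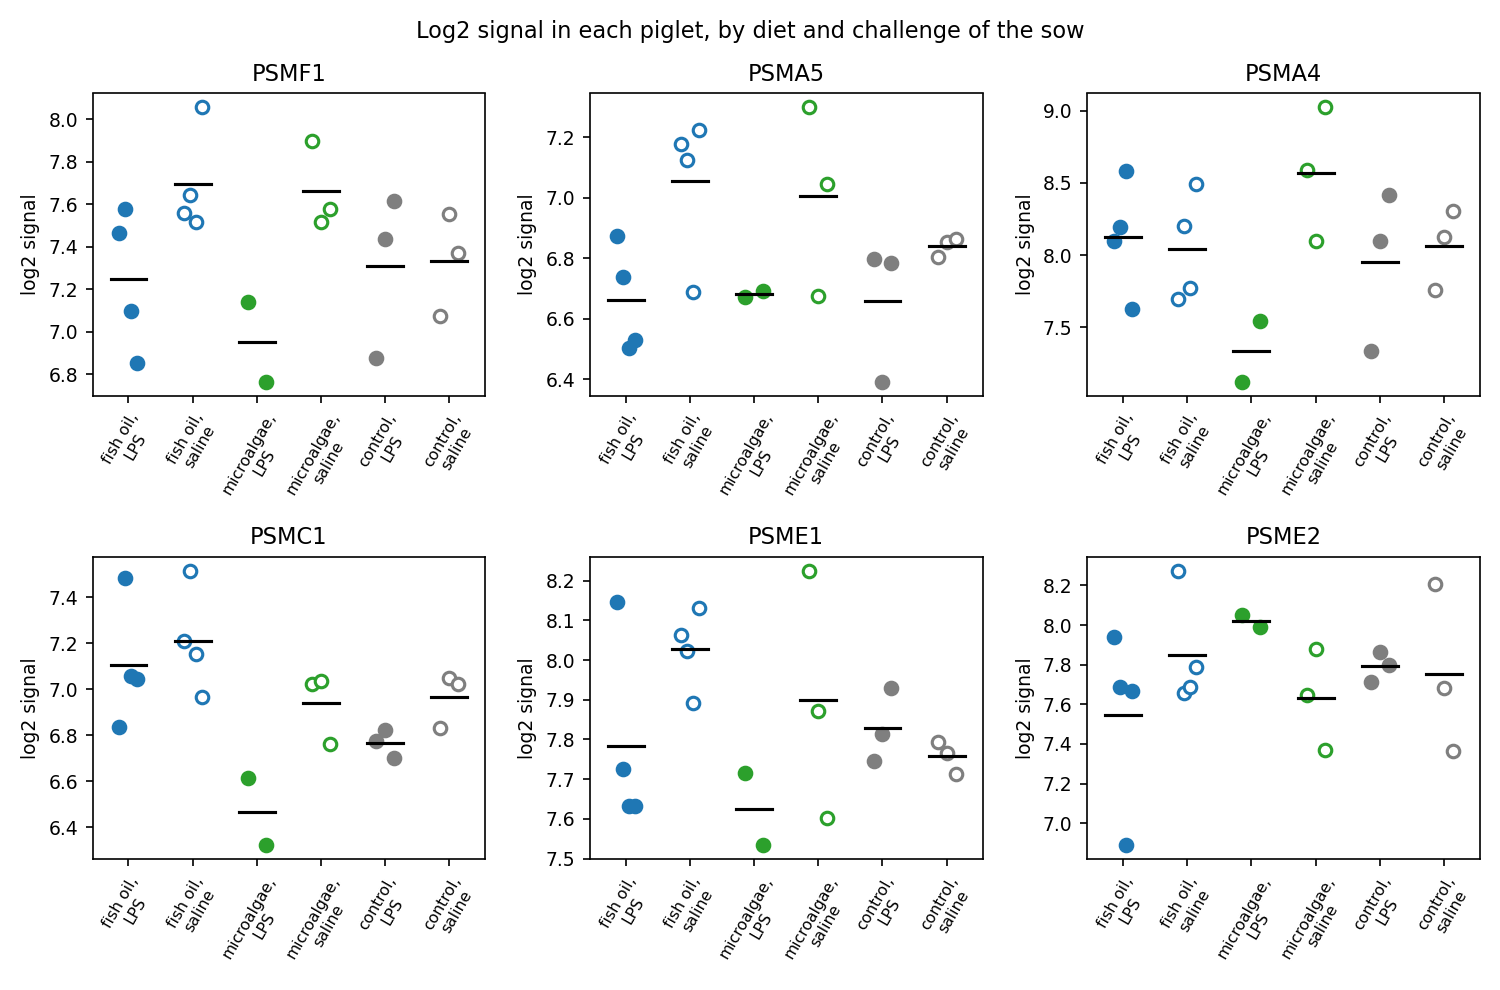
Log2 signal (vertical axes) of 6 proteasome genes in each piglet, by the sow's diet and challenge; filled points are maternal LPS, open points maternal saline, and lines are group means. PSMF1 and PSMA4 are lower in both microalgae LPS piglets than in all 3 microalgae saline piglets, PSMC1 lies highest in fish oil piglets, and PSME2 has 1 low value, 6.89, in a fish oil LPS piglet.

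Within the microalgae diet the difference by maternal LPS was wider, and it rests on 2 LPS piglets. Of the 34 genes, 23 were lower and 11 higher, with a median of -0.23, against 0.03 over all probe sets tested. Without piglet 22 that median was -0.15. At an adjusted p under 0.05 limma called 0 of 34 genes and 0% of all probe sets. At an unadjusted p under 0.05, 8 genes were lower and 1 higher, where 5.81% of all probe sets were lower and 5.86% higher. The 8 lower genes were PSMA4, PSMF1, PSMB6, PSMA1, PSMD14, PSMC1, PSMD10 and PSMD6. The 9 genes together became 5 without piglet 7, 12 or 22 and 4 without piglet 23.

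PSMA4 differed most there, by -1.24 ± 0.34 (SE; limma, unadjusted p = 0.00203, adjusted p = 0.28). PSMB6, the constitutive subunit with caspase-like activity, had 5.79 and 6.33 in microalgae LPS piglets, against 6.93, 6.50 and 6.59 in microalgae saline piglets. The groups did not overlap, which says little with 2 against 3 piglets. The difference was -0.61 ± 0.22 (SE; limma, unadjusted p = 0.0134, adjusted p = 0.329). PSMD14, the deubiquitinase of the 19S lid, had 7.23 and 7.46 after LPS, against 7.93, 7.80 and 8.33 after saline. Its groups did not overlap either, at a difference of -0.68 ± 0.28 (SE; limma, unadjusted p = 0.0247, adjusted p = 0.368). PSMG3, a chaperone that helps to build the alpha ring, was the gene on the other side, with 5.37 and 5.54 after LPS, against 5.12, 4.98 and 5.01 after saline. Its difference was 0.42 ± 0.18 (SE; limma, unadjusted p = 0.0313, adjusted p = 0.392).

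In the fish oil diet the 34 genes were split evenly after maternal LPS, 17 higher and 17 lower, with a median of 0.00, which lay between -0.05 and 0.02 when piglets were left out in turn. Limma called 0 of them and 0% of all probe sets at an adjusted p under 0.05. At an unadjusted p under 0.05, 3 were lower and 0 higher, where 2.88% of all probe sets were lower and 1.39% higher. These were PSMA5 (-0.39), PSMA3 (-0.28) and PSMF1 (-0.45). The count was 0 without piglet 20 or without piglet 24 and 1 without piglet 18. PSMA3, an alpha-ring subunit, had 8.40, 8.52, 8.30 and 8.18 in fish oil LPS piglets, against 8.63, 8.66, 8.79 and 8.46 in fish oil saline piglets, with an overlap at piglets 19 and 18.

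In the control diet 9 of the 34 genes were higher and 25 lower after maternal LPS, with a median of -0.09, against 0.00 over all probe sets tested. That median was -0.05 without piglet 6 and -0.06 without piglet 8. With adjustment, limma called 0 of 34 genes and 0% of all probe sets. Without it, p was under 0.05 for 0 genes in either direction, where 0.982% of all probe sets were higher and 0.755% lower. Without piglet 8 that count was 2.

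Whether the effect of maternal LPS in each of the other diets differed from that in the control diet was tested directly. For fish oil against control, 22 of the 34 differences of differences were above 0 and 12 below, with a median of 0.09. Limma called 0 of 34 genes and 0% of all probe sets at an adjusted p under 0.05, and 0 genes at an unadjusted p under 0.05, where 1.04% of all probe sets were higher and 1.6% lower. Without piglet 6, 8, 11, 14, 19 or 24 that unadjusted count was 1, and the median was 0.00 without piglet 6 and 0.04 without piglet 18. For microalgae against control, 14 were above 0 and 20 below, with a median of -0.17, which was -0.08 without piglet 17. None of the 34 genes was called by limma at an adjusted p under 0.05, nor were any others (0% of all probe sets). Before adjustment, PSMA4 (-1.13) and PSMG3 (0.52) met p under 0.05, where 2.54% of all probe sets were lower and 2.87% higher. That count of 2 became 0 without piglet 8, 17 or 22 and 4 without piglet 6, and 7, 10, 13, 18, 19 and 21 each left 1 gene when omitted. No gene passed the adjusted test of a difference from the control diet. A difference in the effect of maternal LPS between fish oil and microalgae was not tested.

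Among the diets, most proteasome genes were slightly higher in fish oil than in control piglets, again with no gene past the test. The mean relative signal of the proteasome genes ran between -0.13 and 0.14 in fish oil piglets, against -0.18 and 0.03 in control piglets. These ranges overlapped. Of the 34 genes, 26 were higher and 8 lower, with a median of 0.08, against 0.00 over all probe sets. That median was 0.04 without piglet 6, 0.05 after quantile normalization and 0.04 with array spread as a covariate. The adjusted test in limma called 0 of 34 genes and 0% of all probe sets. Unadjusted, p was under 0.05 for 1 gene that was higher and for 0 that were lower, where 1.39% of all probe sets were higher and 1.29% lower. The count was 2 without piglet 17 or 19 and 3 without piglet 13 or 24. The gene was PSMC1, with 6.84, 7.11 and 7.52 as lowest, median and highest value in 8 fish oil piglets, against 6.70, 6.83 and 7.05 in 6 control piglets. The ranges overlapped, and the difference was 0.29 ± 0.12 (SE; limma, unadjusted p = 0.0214, adjusted p = 0.9999).

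PSMD8, a lid subunit of the 19S cap, came next and did not meet the unadjusted threshold. It had 6.25, 6.62 and 6.86 as lowest, median and highest value in fish oil piglets, against 6.04, 6.38 and 6.62 in control piglets. The ranges overlapped, at a difference of 0.21 ± 0.11 (SE; limma, unadjusted p = 0.0776, adjusted p = 0.9999). Without piglet 6 that difference was 0.12.

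Against microalgae, fish oil piglets were higher in 28 genes and lower in 6, with a median of 0.08, against 0.00 over all probe sets. Without piglet 15 it was 0.03, and without piglet 7 it was 0.04. All 5 alpha-ring genes and all 8 non-ATPase subunits of the 19S cap were higher in fish oil piglets, between 0.01 and 0.15 and between 0.01 and 0.23. Limma called 0 of 34 genes and 0% of all probe sets at an adjusted p under 0.05. At an unadjusted p under 0.05, 1 gene was higher and 0 lower, where 1.55% of all probe sets were higher and 1.3% lower. The count was 2 without piglet 6, 13, 23 or 24. It was PSMC1 again, whose 8 fish oil values, given above, stood against 6.61, 6.32, 7.03, 7.04 and 6.76 in the microalgae piglets. Of the 5 microalgae piglets, 12 and 15 overlapped with fish oil piglets, and 7, 22 and 23 were below all of them. The difference was 0.46 ± 0.12 (SE; limma, unadjusted p = 0.00176, adjusted p = 0.9999). PSMD8 had 6.26, 6.28, 6.49, 6.31 and 6.56 in microalgae piglets, all within the fish oil range, and differed by 0.23 ± 0.12 (SE; limma, unadjusted p = 0.0717, adjusted p = 0.9999).

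Microalgae and control piglets were close to each other. Of the 34 genes, 15 were higher and 19 lower in microalgae piglets, with a median of -0.01, against 0.00 over all probe sets. Its sign turned without piglet 7, 15, 16 or 17, up to 0.04, and in the additive model. Limma called 0 of 34 genes and 0% of all probe sets at an adjusted p under 0.05, and 0 genes at an unadjusted p under 0.05, where 0.856% of all probe sets were higher and 0.789% lower. The smallest unadjusted p was 0.229, for PSMC1 at -0.16 ± 0.14 (SE; limma, adjusted p = 1), and -0.09 without piglet 23. PSMD9, a chaperone of the 19S base, had 5.66, 5.88, 6.05, 6.12 and 6.02 in microalgae piglets, against 5.79, 5.92 and 6.59 as lowest, median and highest value in control piglets. It differed by -0.12 ± 0.12 (SE; limma, unadjusted p = 0.333, adjusted p = 1), and by -0.01 without piglet 21.

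The comparisons of the diets share their control or their fish oil piglets, and those of maternal LPS within diets add up to the mean over diets, so their values are not independent of one another. The 95% interval of PSMC1 ran between 0.05 and 0.54 for fish oil against control and between 0.20 and 0.72 for fish oil against microalgae.

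The inducible activators were next set against constitutive genes. PSME1 and PSME2 encode the interferon-inducible subunits of the 11S activator, PA28. The constitutive counterparts were the cutting subunits PSMB5, PSMB6 and PSMB7, which carry the chymotrypsin-like, caspase-like and trypsin-like activities, and PSME3, the nuclear 11S activator. None of these 6 genes met the unadjusted threshold for maternal LPS averaged over the diets, or in a comparison of 2 diets.

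PSME1 had 8.15, 7.73, 7.63 and 7.63 in fish oil LPS piglets, against 8.06, 8.02, 7.89 and 8.13 in fish oil saline piglets. It had 7.71 and 7.53 in microalgae LPS piglets, against 8.23, 7.87 and 7.60 in microalgae saline piglets. It had 7.75, 7.81 and 7.93 in control LPS piglets, against 7.79, 7.77 and 7.71 in control saline piglets. Of the 4 fish oil LPS piglets, 3 were below all 4 fish oil saline piglets and piglet 10 was above them, and the groups overlapped in the other diets. The difference was -0.15 ± 0.10 averaged over diets (SE; limma, unadjusted p = 0.144, adjusted p = 0.735), and -0.24 in fish oil, -0.28 in microalgae and 0.07 in control. The average was -0.08 after quantile normalization and -0.10 without piglet 12.

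PSME2 had 7.94, 7.69, 6.89 and 7.67 in fish oil LPS piglets, against 8.27, 7.66, 7.69 and 7.79 in fish oil saline piglets. It had 8.05 and 7.99 in microalgae LPS piglets, against 7.65, 7.88 and 7.37 in microalgae saline piglets. It had 7.71, 7.86 and 7.80 in control LPS piglets, against 8.21, 7.68 and 7.37 in control saline piglets. Piglet 20 read 6.89, below the next lowest value of 7.37, and the microalgae LPS piglets were above all microalgae saline piglets. The difference was 0.04 ± 0.15 averaged over diets (SE; limma, unadjusted p = 0.785, adjusted p = 0.956), with -0.31 in fish oil, 0.39 in microalgae and 0.04 in control. Its sign turned when piglet 10, 21 or 22 was left out (-0.02 without piglet 21), in the additive model, when each array was centred on its median and in the fit with the array spread as a covariate.

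The constitutive genes gave differences of 0.02 for PSMB5, -0.20 for PSMB6, -0.09 for PSMB7 and -0.05 for PSME3 after maternal LPS, and of 0.22, 0.18, 0.06 and 0.02 for fish oil against control. PSMB5 had 5.73, 6.03 and 6.58 as lowest, median and highest value in the LPS piglets, against 5.78, 6.01 and 6.34 in the saline piglets. PSMB7 had 7.33, 7.57 and 7.76, against 7.43, 7.62 and 7.80, and PSME3 had 7.01, 7.47 and 7.90, against 7.08, 7.46 and 7.96. PSMB6 had 5.79, 6.58 and 6.87, against 6.37, 6.51 and 6.93. LPS and saline piglets overlapped over most of the range for PSMB5, PSMB7 and PSME3. They overlapped for PSMB6 as well, but its lowest LPS value, 5.79, lay well below every saline value.

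A single value per piglet, the mean relative signal of PSME1 and PSME2 minus that of the 4 constitutive genes, set the inducible members against the constitutive ones. It was 0.03, -0.24, -0.74 and -0.04 in fish oil LPS piglets, against 0.42, -0.10, 0.07 and 0.13 in fish oil saline piglets. It was 0.41 and 0.06 in microalgae LPS piglets, against 0.04, 0.22 and -0.52 in microalgae saline piglets. It was 0.22, 0.01 and 0.09 in control LPS piglets, against 0.22, 0.01 and -0.30 in control saline piglets. The groups overlapped in every diet, and piglets 20 and 22 were the lowest. The difference between maternal LPS and saline was -0.38 in fish oil, 0.32 in microalgae and 0.13 in control, and 0.02 averaged over the diets, against a within-group SD of 0.28. For the diets it was -0.10 for fish oil against control, 0.03 for microalgae against control and -0.13 for fish oil against microalgae. Single piglets moved each of these. Without piglet 20 the difference by maternal LPS in fish oil was -0.21, without piglet 22 that in microalgae was 0.11, and without piglet 21 that in control was -0.01. The average over the diets lay between -0.05 and 0.08 when piglets were left out in turn. Fish oil against control was -0.02 without piglet 20, fish oil against microalgae was -0.04 without piglet 7, and microalgae against control ran between -0.06 without piglet 7 and 0.14 without piglet 22.

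Genes of interferon signalling and of class I peptide loading, the setting in which PSME1 and PSME2 work, were measured for 17 of 25 listed symbols. After maternal LPS 16 of the 17 were lower and 1 was higher, with a median of -0.23, which was -0.15 without piglet 12. None passed the adjusted test, and 4 met an unadjusted p under 0.05, all lower, where 3.59% of all probe sets were lower. That count was 1 without piglet 23 and 6 without piglet 13 or 22. IRF2, a repressor of interferon responses, differed by -0.63 ± 0.13 (SE; limma, unadjusted p = 0.000112, adjusted p = 0.145). JAK2, a kinase of cytokine receptors, differed by -0.42, STAT2, a transcription factor of type I interferon, by -0.33, and ERAP1, a peptide trimmer, by -0.27. In the fish oil diet 12 of the 17 were lower and 5 higher, with a median of -0.36. None was called, and 7 met an unadjusted p under 0.05 in limma, all lower, where 2.88% of all probe sets were lower. That count was 5 without piglet 20 and 9 without piglet 10, 13 or 24. The smallest p belonged to IRF2 (-0.91), STAT2 (-0.76), JAK2 (-0.84) and ERAP1 (-0.50). TAP1 and TAP2, the subunits of the peptide transporter, differed in the fish oil diet by -0.67 and -0.66, and by -0.39 and -0.37 without piglet 20. In the microalgae diet they differed by 0.27 and 0.12, and in the control diet by -0.11 and -0.13.

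The proteasome cofactors, such as ubiquitin genes, shuttles and the VCP segregase, were measured for 16 of 28 symbols. Of these 9 were higher and 7 lower after maternal LPS, with a median of 0.01, and limma called 0. At an unadjusted p under 0.05, 1 was lower and 0 higher, against the 3.59% and 3.37% of all probe sets. It was NGLY1, a deglycosylase needed to activate NFE2L1, at -0.22 (limma, unadjusted p = 0.0293), and the count was 0 without piglet 6, 7, 8, 12 or 13.

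Across the 19 piglets, PSME1 and PSME2 were compared with those 17 genes, 34 relations in all. PSME1 varied together with TAPBP, the tapasin gene of the class I loading complex (Pearson's r = 0.796, permutation p = 4e-05, adjusted 0.00136; Spearman's rho = 0.704, permutation p = 0.00107, adjusted 0.0308). That r was 0.741 without piglets 12 and 10, the 2 farthest from the median of PSME1, and 0.799 within groups. Without the 2 piglets farthest from the median of TAPBP it was 0.657. TAPBP read the same value, 6.673, in piglets 7, 8, 15 and 16, and the reason was not examined. PSME2 followed TAP1 (r = 0.793, permutation p = 0.0002, adjusted 0.0034), but its rank correlation missed the threshold after adjustment (rho = 0.518, permutation p = 0.0247, adjusted 0.0856). That r was 0.617 without piglet 20 and 0.554 without piglets 20 and 9, the 2 farthest from the median of PSME2. Without the 2 piglets farthest from the median of TAP1 it was 0.495. PSME2 ran opposite to CANX, the calnexin gene (r = -0.576, permutation p = 0.0084, adjusted 0.0386; rho = -0.684, permutation p = 0.00181, adjusted 0.0308), and that r was -0.532 without piglets 20 and 9. Without the 2 piglets farthest from the median of CANX it was -0.423.

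The other relations were weaker by at least one measure. For PSME1, 5 of 17 relations passed by r and 1 by r and rho together, and 15 were positive, with a median r of 0.453. For PSME2, 6 of 17 passed by r and 1 by both, and 12 were positive, with a median r of 0.301. All these values share the same arrays, so differences between arrays enter both sides of each relation. PSME1 and PSME2 were not correlated with all probe sets. The counts therefore have no share over the array beside them and do not set the 17 genes apart from others.

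**Figure D4:**
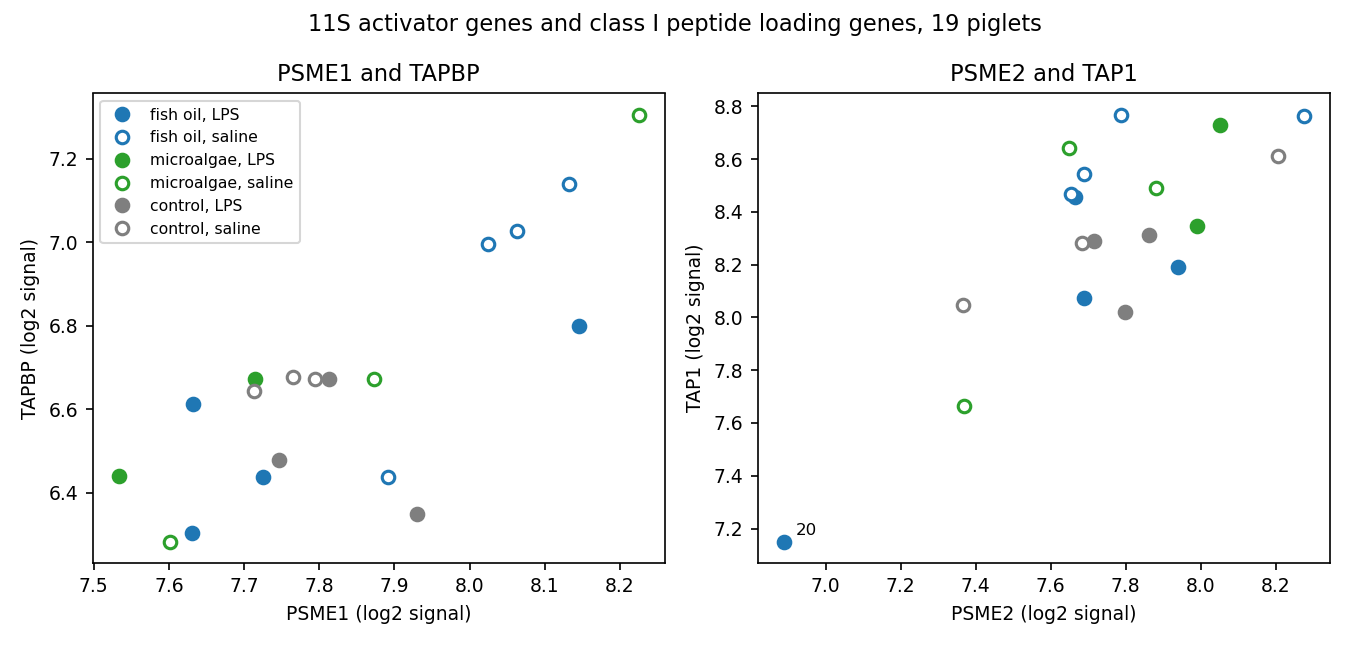
Log2 signal of TAPBP against PSME1 (left) and of TAP1 against PSME2 (right) in the 19 piglets; colours give the sow's diet, filled points maternal LPS and open points maternal saline. PSME1 and TAPBP rise together (r = 0.796), and piglet 20 sits alone at the low end of PSME2 and TAP1.

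The arrays themselves differed in spread, the distance between the upper and lower quartile of all log2 values, which ran between 2.271 in piglet 24 and 2.654 in piglet 20. LPS piglets had spreads of 2.271, 2.523 and 2.654 as lowest, median and highest, against 2.437, 2.574 and 2.649 in saline piglets. Both microalgae LPS arrays were narrow, at 2.486 and 2.467, and that of microalgae saline piglet 15 was narrower, at 2.437. Array medians lay between 4.381 and 4.524, and correlations between arrays between 0.934 and 0.982.

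Within groups, 8 of the 34 proteasome genes changed with array spread in limma at an adjusted p under 0.05, 7 upwards and 1 downwards. This model was chosen after seeing the data. The same test called 12.9% of all probe sets upwards and 10.3% downwards. The total of 8 was near the 23.2% of the array as a whole, while the split leaned upwards: 76.5% of the proteasome slopes were above 0, against 49.3% of all slopes. The spread is taken from the same log2 values. All tested proteasome genes but PSMB11 and PSMC3IP had means above every array median. Probe sets of similar signal were not compared, so the lean cannot be called particular to the proteasome genes. PSMD5 rose by 0.37 ± 0.05 for each 0.1 of spread (SE; adjusted p = 0.00172), PSMA4 by 0.29 ± 0.07 (SE; adjusted p = 0.00918), PSMD11 by 0.27 ± 0.05 (SE; adjusted p = 0.0038) and PSME3 by 0.24 ± 0.06 (SE; adjusted p = 0.00888). PSMD12, PSMB6 and PSMC2 rose by 0.19, 0.17 and 0.11. PSMB4 fell by 0.19 for each 0.1 of spread (adjusted p = 0.0272).

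PSMD5 had 5.68, 6.12, 6.33 and 4.63 in fish oil LPS piglets 10, 19, 20 and 24, against 5.52, 6.02, 5.26 and 5.81 in fish oil saline piglets. It had 5.18 and 5.37 in microalgae LPS piglets, against 5.82, 5.54 and 6.27 in microalgae saline piglets, and 5.09, 5.60 and 5.42 in control LPS piglets, against 5.70, 5.51 and 5.72 in control saline piglets. Its lowest value belonged to the narrowest array and its highest to the widest. The count of 8 rested on few arrays: it was 4 without piglet 6, 2 without piglet 24 and 0 without both. So did the share of all probe sets called, which was 23.2% with all arrays, 1.88% without piglet 24 and 0% without both. That share ran between 1.88% and 24.5% when piglets were left out in turn. With spread as a covariate, the median difference of the 34 genes after maternal LPS was -0.03, and 3 genes, PSMA5, PSMC1 and PSMF1, were lower at an unadjusted p under 0.05 and 0 higher, where 2.8% of all probe sets were lower and 2.82% higher in that fit. The part of array spread in the difference by maternal LPS was not tested further.

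**Figure D5:**
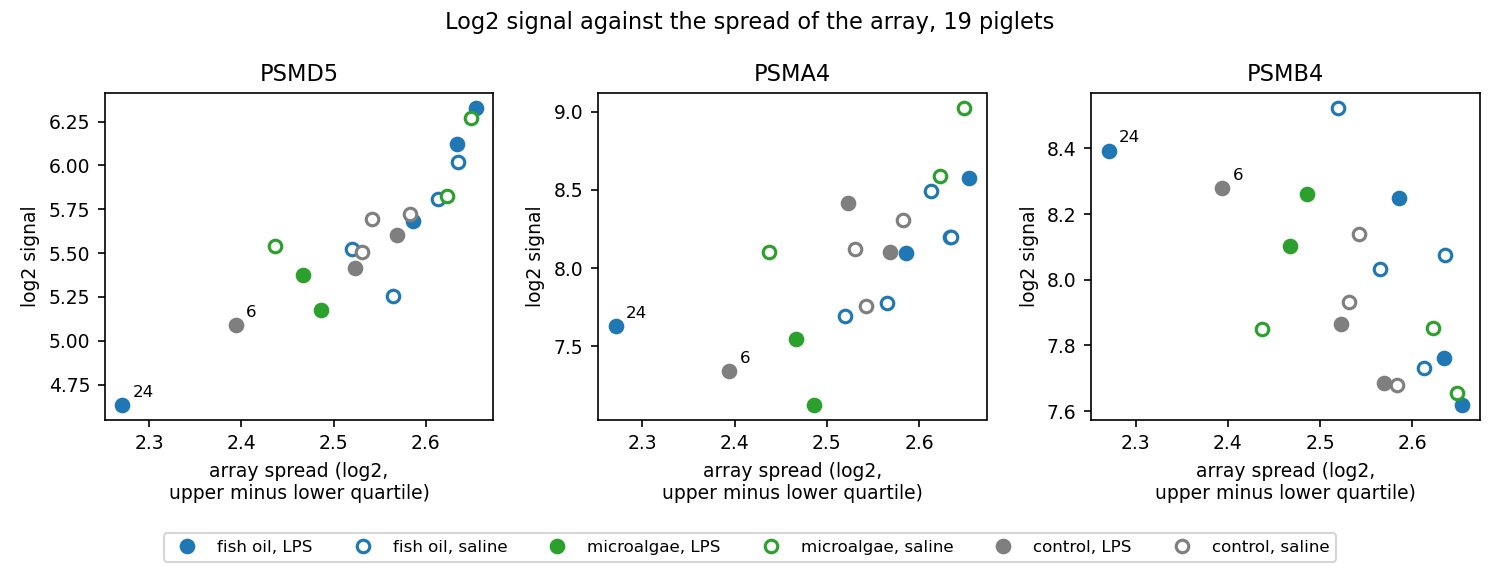
Log2 signal of PSMD5, PSMA4 and PSMB4 (vertical axes) against the spread of each piglet's array (horizontal axes, upper minus lower quartile of all log2 values); colours give the sow's diet, filled points maternal LPS and open points maternal saline. PSMD5 and PSMA4 rise with spread and PSMB4 falls, and piglets 6 and 24 mark the narrow end.

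The glands carried cortex and medulla RNA, and no gene of a marker list was called between groups. The steroid enzymes CYP17A1, CYP21A2 and HSD3B1 and the lipoprotein receptor SCARB1, 4 of 11 listed cortex genes measured, had means between 11.1 and 12.4, and of 9 listed medulla genes 5 were measured. Among the lymphocyte genes, CD3G had a mean of 2.88 and was not tested. CD4, CD8A and GZMA had means of 3.57, 3.75 and 3.36, below the medians of the arrays. CD3D, CD6, CD79A and CD79B, at 3.97, 3.88, 3.98 and 4.07, also lay below them. CD2, CD3E, CD5, NKG7 and GNLY, at 4.55, 4.58, 4.67, 4.68 and 4.75, lay above them, and CD8B, at 4.42, lay among them. The part of these lists in the proteasome differences was not tested.

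After maternal LPS, averaged over the diets, the medulla genes were lower in 4 of 5, with a median of -0.22, and the mean relative medulla signal ran between -0.97 and 0.82 in LPS piglets, against -0.48 and 0.62 in saline piglets. The cortex genes were lower in 4 of 4, with a median of -0.11. Lymphocyte genes were higher in 8 of 13 tested, endothelial genes in 4 of 8, fibroblast genes in 4 of 8 and general leucocyte genes in 1 of 2. The myeloid genes were higher in 7 of 13 on average. Within diets, 10 of 13 were lower in fish oil (median -0.15), 9 of 13 lower in microalgae (median -0.26) and 13 of 13 higher in control (median 0.39). In the direct tests of a difference from the control diet, limma called 0 of 13 for fish oil and 0 for microalgae. At an unadjusted p under 0.05, 2 and 3 of 13 were lower there, where 1.6% and 2.54% of all probe sets were lower. The mean relative myeloid signal ran between 0.01 and 0.24 in control LPS piglets, against -0.36 and -0.18 in control saline piglets, without overlap. Of the fibroblast genes, 8 of 8 were higher in fish oil (median 0.31), 6 of 8 lower in microalgae (median -0.17) and 7 of 8 lower in control (median -0.19). In microalgae, where the proteasome difference was widest, the cortex genes were lower in 3 of 4, with a median of -0.32. The mean relative cortex signal ran there between -0.26 and -0.03 in LPS piglets, against -0.10 and 0.18 in saline piglets.

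Between fish oil and control piglets, all 13 myeloid genes and 11 of 13 lymphocyte genes were higher, with medians of 0.16 and 0.19. The cortex genes were higher in 4 of 4 (median 0.16), the endothelial genes in 7 of 8 (median 0.12), and the medulla genes lower in 4 of 5 (median -0.23). Of 8 fibroblast and capsule genes 7 were lower, with a median of -0.77. At an unadjusted p under 0.05 in limma, 5 of these 8 were lower and 0 higher, where 1.29% of all probe sets were lower. The lowest of these p-values was 0.000962 (limma). At the same threshold 2 lymphocyte genes and 1 cortex gene were higher, where 1.39% of all probe sets were higher. The mean relative fibroblast signal ran between -1.21 and 0.48 in fish oil piglets, against -1.16 and 1.19 in control piglets. The mean relative myeloid signal ran between -0.24 and 0.54, against -0.36 and 0.24.

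Between fish oil and microalgae piglets, 7 of 8 endothelial genes were higher, with a median of 0.24, and 2 of them met an unadjusted p under 0.05, the lowest being 0.000395 in limma, where 1.55% of all probe sets were higher. The mean relative endothelial signal ran between 0.01 and 0.28 in fish oil piglets, against -0.30 and 0.07 in microalgae piglets. The cortex genes were higher in 4 of 4 (median 0.11) and the myeloid genes in 10 of 13 (median 0.19). The fibroblast genes were lower in 7 of 8 (median -0.52) and the medulla genes in 5 of 5 (median -0.32).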

How the data were processed

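The deposited table gives a log2 signal for each probe set and piglet. The log base is not stated, and values between 0.263 and 13.5 fit base 2. Per the submitters' processing notes Transcriptome Analysis Console 4.0 was used; summarization, normalization and genome build are not given in the sources used here. RNA was extracted from whole glands with the RNeasy kit and labelled with the WT PLUS kit, per the labels' protocols. Of 27558 probe sets, 13157 have 1 gene symbol, 523 several and 13878 none. Array control probe sets could not be identified and were kept. The values were used as deposited, without scaling. After the lowest 25% of probe sets by mean (6890) were left out, 20668 were fitted in limma 3.58.1 (R 4.3.3), with 1 mean for each of 6 groups and an intensity trend (13 residual and 4.62 prior degrees of freedom). P-values were two-sided and adjusted by Benjamini-Hochberg across the 20668, and a gene was called at an adjusted p under 0.05. The fit was tested on simulated data. Correlations used 100000 permutations. The number of arrays limits the precision of all values. A gene that the choice of symbols would take in is not reported here.

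The members, gene lists and tests were chosen with earlier results of these data known. Named with values were the inducible genes and their counterparts, at most 4 genes per comparison with an unadjusted p under 0.05 (2 with the smallest p where fewer met it), and the extremes in mean and spread. PSMA1, PSMD10, PSMA3, PSMB6, PSMD14, PSMG3 and the genes that followed array spread were named after their values were seen. The relative signal is the log2 value minus the gene's mean over 19 piglets.

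Alternatives were no filter, leaving out the lowest 50%, quantile normalization, median centring, array weights, array spread as a covariate, no intensity trend, an additive model, the mean of all probe sets of a symbol, and leaving out each piglet or both piglets 6 and 24. Leaving piglets out of the interferon and cofactor lists, and piglet 20 out of the correlations, was added after seeing the data.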

Additional observations from a re-analysis of the deposited data

Results flagged for a closer look

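In the groups of 4 piglets, a piglet stood far from its group in 4 of 70 sets of gene and group by Dixon's criterion, where chance gives about 1 in 20. PSMA6 was 8.914 in fish oil saline piglet 11, with the other 3 between 8.481 and 8.554. PSMC6 was 6.937 in fish oil saline piglet 18, with the others between 7.452 and 7.549. PSMD3 was 6.412 in the same piglet, with the others between 6.945 and 7.052. PSMA8, under the filter, was 1.963 in fish oil LPS piglet 24, the piglet with the narrowest array, with the others between 1.473 and 1.526.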

How the results depend on the processing

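Of 695 alternatives to the counts and medians, 684 gave a median within 1 SD between piglets of its reported value or a count within 1.5 times of it. That SD was 0.085 for the medians and 0.279 for the inducible against the constitutive genes. Many reported values were no larger, so a change of sign could fall within it. Counts at an unadjusted p under 0.05 were not among the 695. For those, 22 of 29 alternatives stayed within 1.5 times for maternal LPS and 13 of 28 for the microalgae interaction. Of the 417 among the 695 that bear on medians and on the inducible against the constitutive genes, 24 had the other sign, in 5 of 16 results, whose reported values lay between -0.01 and 0.13. No proteasome gene was called in any of 256 counts outside the array spread test. The median difference by maternal LPS in the microalgae diet was -0.11 under quantile normalization, -0.33 under median centring and -0.15 with array spread as a covariate. The microalgae interaction median was -0.066 under quantile normalization and -0.25 under median centring, and ran between -0.212 and -0.078 when piglets were left out in turn. The fish oil interaction median ran between 0.00031 and 0.124. The count of genes that followed array spread, chosen after seeing the data, was 4 under quantile normalization, 0 without piglets 6 and 24 together, and between 2 and 9 when piglets were left out in turn. The share of all probe sets called by that test was 0% without both piglets and ran between 1.88% and 24.5% when piglets were left out in turn. PSME2 after maternal LPS turned to -0.00447 under median centring, -0.033 with array spread as a covariate and -0.019 in the additive model, and ran between -0.024 and 0.116 when piglets were left out in turn. The cause of these shifts was not tested. No paired analysis was possible because each piglet has its own number and its own sow. The number of arrays, 2 to 4 a group, and the spread between piglets limit what could be called, and dim probe sets such as PSMB11 were measured near the lower end of the scale.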
